A study of Mus musculus with 9 samples.

Results

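The genes described here decide what a skin cell does with the amino acid arginine. They are the arginases Arg1 and Arg2, the inducible nitric oxide synthase Nos2, the citrulline-recycling enzymes Ass1 and Asl, the ornithine decarboxylase Odc1, and the arginine transporters Slc7a1 and Slc7a2. The 8 genes were chosen by symbol from a count table of 52550 genes, and all 8 passed the filter on low counts that left 22430 genes for testing. The rule used their place in the pathway and no measured value, but it was set with earlier results of these data known.

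RNA came from the dermis of the ears of wild-type C57BL/6 mice (C57BL/6J in the study's methods) aged 8 weeks, in 3 groups of 3 libraries. VAS+H2O mice had vaseline on the ear for 5 days and 200 µl of water by gavage for 10 days. IMQ+H2O mice had imiquimod cream for 5 days, which gives a psoriasis-like dermatitis, and the same water. IMQ+XYF mice had imiquimod cream for 5 days and 200 µl of Xiao-Yin-Fang decoction (XYF, 23.3 mg/g), a mixture of Chinese herbs, for 10 days. Gavage began 5 days ahead of the topical treatment in all 3 groups. The labels and the legends of the study differ on how often per day it was given. The study's methods name ear sheets of more than 1 mouse as the source of RNA without saying whether a library pooled mice. The legend of its sequencing figure gives n = 3 for each group without saying whether these are 3 mice. P-values therefore measure the spread between these libraries, which may in part be technical.

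Arginine enters the cell through cationic amino acid transporters. Arginase splits it into urea and ornithine, and ornithine decarboxylase turns ornithine into putrescine, the first of the polyamines that dividing cells need. Nitric oxide synthases instead turn arginine into nitric oxide and citrulline, and Ass1 followed by Asl rebuilds arginine from citrulline. In skin, Arg1 is a known product of keratinocytes and of alternatively activated macrophages, and Nos2 is a known product of cells exposed to interferon and bacterial signals.

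The libraries held between 28756305 and 79836881 counts, and the chi-squared of counts between replicates, divided by its degrees of freedom, was 26.8 to 154, far over the value of 1 that counting error alone gives. All 8 markers of dermal fibroblasts were detected in every library, with a summed level between 10800 and 26070 CPM (counts scaled to a common library size). The dermis was not free of other tissue. All 14 keratinocyte markers were detected in every library, at a summed 4633 to 8023 CPM in VAS+H2O, 3074 to 4710 CPM in IMQ+H2O and 5134 to 18860 CPM in IMQ+XYF, where replicate 1 stood apart as the highest. Of 10 neutrophil markers 9 were tested. The summed level of all 10 was 7.69 to 26.8 CPM in VAS+H2O, 213 to 675 CPM in IMQ+H2O and 175 to 485 CPM in IMQ+XYF. Of the 10, 5 had 0 counts in at least 1 VAS+H2O library. Cartilage markers summed to 924 to 1687, 267 to 437 and 546 to 1636 CPM in the same order, and skeletal muscle markers to 582 to 2907, 1326 to 2843 and 134 to 981 CPM. In whole dermis, more cells of a type and more RNA per cell cannot be told apart.

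None of the 8 genes was called changed in any of the 3 comparisons by edgeR. A call needed a Benjamini-Hochberg adjusted p of 0.05 or lower over all genes tested and an absolute log2 fold change of 1 or higher. For IMQ+H2O against VAS+H2O, 0 of 8 were called where 0.994% of all genes were, 2 had an unadjusted p under 0.05 (background 20.9%), and 1 was called by DESeq2. DESeq2 called more of all genes than edgeR in every comparison, with the totals in the closing section. The edgeR share is therefore not a background for DESeq2 calls. In IMQ+XYF against IMQ+H2O, 0 of 8 were called by either tool (background 0.00892% by edgeR), and 1 had an unadjusted p under 0.05 (background 11.7%). In IMQ+XYF against VAS+H2O, 0 of 8 were called by either tool (background 1.20% by edgeR), and 3 had an unadjusted p under 0.05 (background 18.3%). Libraries of the compared groups did not overlap for 2, 0 and 3 of the 8 genes in these comparisons, against 31.5%, 18.0% and 22.1% of all genes. The members with the lowest p-values were Arg2 and Ass1 with imiquimod, and Ass1, Slc7a1 and Odc1 in IMQ+XYF against VAS+H2O, all at higher levels.

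**Figure D1:**
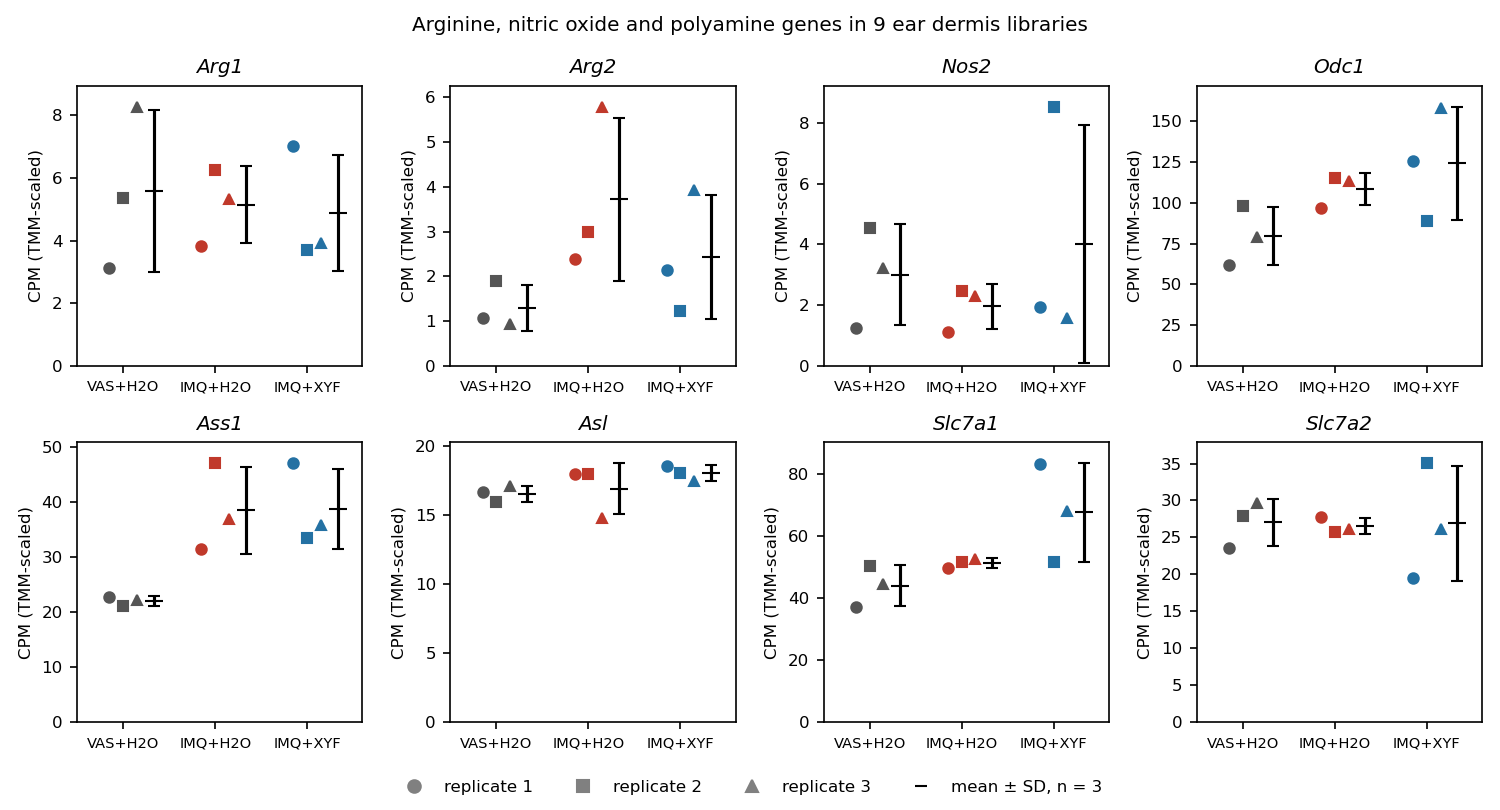
CPM scaled by TMM factors (y axes from 0, a scale of its own for each gene) of the 8 genes in each of the 9 libraries. Each symbol is 1 library, and bars give the mean ± SD of 3 libraries. Ass1 stands at 21.1 to 22.7 CPM in VAS+H2O and at 31.4 to 47.0 CPM in the other 6 libraries, and Arg2 also separates VAS+H2O from IMQ+H2O. The other 6 genes overlap between these groups.

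Arg1 (ENSMUSG00000019987, chr10:24915221-24927484, minus strand of GRCm38) encodes the cytosolic, liver-type arginase. It was measured at 3.13, 5.36 and 8.28 CPM in VAS+H2O, at 3.82, 6.26 and 5.34 CPM in IMQ+H2O, and at 7.02, 3.70 and 3.91 CPM in IMQ+XYF. The highest value lay in the control group, and the 3 groups overlapped throughout. Its log2 fold change was -0.12 for IMQ+H2O against VAS+H2O (SE 0.39, 95% CI -1.004 to 0.759, edgeR adjusted p = 0.882). It was -0.08 for IMQ+XYF against IMQ+H2O (SE 0.39, 95% CI -0.96 to 0.80, edgeR adjusted p = 0.952). The intervals leave room for a change of either sign, and the sign of both values turned when single libraries were left out, IMQ+XYF replicate 2 and VAS+H2O replicate 3 among them. Without VAS+H2O replicate 3, the value for IMQ+H2O against VAS+H2O was 0.28.

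Arg2 (ENSMUSG00000021125, chr12:79130777-79156301, plus strand) encodes the mitochondrial arginase. Its levels were 1.07, 1.89 and 0.938 CPM in VAS+H2O, 2.38, 2.98 and 5.79 CPM in IMQ+H2O, and 2.14, 1.22 and 3.93 CPM in IMQ+XYF. Every IMQ+H2O library lay above every VAS+H2O library, and IMQ+XYF overlapped both. The mean was 1.30 ± 0.516 CPM in VAS+H2O and 3.72 ± 1.82 CPM in IMQ+H2O (SD, n = 3 each). The fold change of 2.89 (log2 1.53, SE 0.51, 95% CI 0.37 to 2.69) did not pass the test by edgeR (adjusted p = 0.147) and passed it by DESeq2 (adjusted p = 0.0409). Over the alternatives the adjusted p ran from 0.0409 to 0.377. In IMQ+XYF against IMQ+H2O the log2 fold change was -0.62 (SE 0.49, 95% CI -1.74 to 0.51, edgeR adjusted p = 0.630). With 1 library left out, this value ran from -1.14 without IMQ+XYF replicate 3 to -0.12 without IMQ+H2O replicate 3. Leaving out IMQ+XYF replicate 2 gave -0.28.

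The Arg2 count carries an uncertainty of its own. Its exons of 1428 bases share 285 bases with Vti1b and 116 bases with Gm48780, which lie on the other strand, and the sources used here do not say whether counting used the strand. Vti1b, which encodes a vesicle fusion protein, was far more abundant, at 36.4, 40.0 and 35.9 CPM in VAS+H2O, 56.2, 43.5 and 57.9 CPM in IMQ+H2O, and 53.4, 42.3 and 43.4 CPM in IMQ+XYF. Its log2 fold change for IMQ+H2O against VAS+H2O was 0.49 (SE 0.14, edgeR adjusted p = 0.109). The Arg2 count was 2.62% to 4.72% of the Vti1b count in VAS+H2O, 4.23% to 10.01% in IMQ+H2O and 2.89% to 9.06% in IMQ+XYF. How many Arg2 reads came from the shared bases was not tested. The neutrophil markers given above were also higher in IMQ+H2O and highest in replicate 3, where Arg2 was highest, and their part in the Arg2 level was not tested.

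Nos2 (ENSMUSG00000020826, chr11:78920787-78960254, plus strand), the inducible nitric oxide synthase of macrophages and keratinocytes, was measured at 1.24, 4.53 and 3.23 CPM in VAS+H2O. It was at 1.10, 2.47 and 2.30 CPM in IMQ+H2O and at 1.94, 8.54 and 1.57 CPM in IMQ+XYF. The groups overlapped, and IMQ+XYF replicate 2 exceeded every other library. Nos2 had a log2 fold change of -0.60 with imiquimod (SE 0.71, 95% CI -2.21 to 1.01, edgeR adjusted p = 0.662). The log2 fold change of IMQ+XYF against IMQ+H2O was 1.02 (SE 0.71, 95% CI -0.59 to 2.63, edgeR adjusted p = 0.578), and without IMQ+XYF replicate 2 it was -0.14. That library also held the most cartilage marker RNA of its group, 1636 against 546 and 927 CPM. In both other groups the order was reversed. Cartilage markers there summed to 1687, 924 and 1136 CPM in VAS+H2O and to 437, 267 and 377 CPM in IMQ+H2O. In each, the library with the most cartilage marker RNA had the lowest Nos2. The part of cartilage in the Nos2 level was not tested. Nos2 had the widest spread of the 8 genes in IMQ+XYF, with an SD of 97.6% of the mean.

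Ass1 (ENSMUSG00000076441, chr2:31470207-31520672, plus strand) encodes argininosuccinate synthase, which joins citrulline to aspartate and sets the pace of arginine recycling. It stood at 22.7, 21.1 and 22.2 CPM in VAS+H2O, at 31.4, 47.0 and 36.8 CPM in IMQ+H2O, and at 47.0, 33.5 and 35.8 CPM in IMQ+XYF. The 3 control libraries lay within a narrow band, and the 6 imiquimod libraries all lay above it. The fold change of IMQ+H2O over VAS+H2O was 1.75 (log2 0.81, SE 0.17, 95% CI 0.41 to 1.20). It missed both limits (edgeR adjusted p = 0.0637). The fold change of IMQ+XYF over VAS+H2O was 1.76 (log2 0.82, SE 0.17, 95% CI 0.42 to 1.21, edgeR adjusted p = 0.0536). Both comparisons share the VAS+H2O libraries. Between IMQ+XYF and IMQ+H2O the log2 difference was 0.01 with a 95% CI of -0.38 to 0.41 (edgeR adjusted p = 0.983). Under the alternatives the adjusted p of Ass1 ran from 0.0029 to 0.183 for IMQ+H2O against VAS+H2O, and the log2 fold change stayed between 0.63 and 0.93.

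Ass1 also has a nearly identical copy. The transcript of Gm5424 matches that of Ass1 over 1240 bases at 99.5% identity, and its counts were 10% to 13.3% of those of Ass1 in a library, so reads could be split between these genes. How the authors treated reads with several alignments is not given in the sources used here.

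The partner enzyme Asl (ENSMUSG00000025533, chr5:130011258-130029247, minus strand), argininosuccinate lyase, releases arginine in the next step. It was measured at 16.6, 15.9 and 17.0 CPM in VAS+H2O, at 17.9, 18.0 and 14.7 CPM in IMQ+H2O, and at 18.6, 18.0 and 17.4 CPM in IMQ+XYF. The imiquimod libraries lay on both sides of the controls, whereas the 3 IMQ+XYF libraries lay just above the 3 controls. Asl had a log2 fold change of 0.03 with imiquimod (SE 0.11, 95% CI -0.23 to 0.29, edgeR adjusted p = 0.900) and 0.12 for IMQ+XYF against VAS+H2O (SE 0.11, 95% CI -0.13 to 0.38, edgeR adjusted p = 0.635). These were the narrowest intervals among the 8 genes.

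Odc1 (ENSMUSG00000011179, chr12:17544794-17551505, plus strand) encodes ornithine decarboxylase, the entry enzyme of polyamine synthesis. Its levels were 62.0, 98.0 and 78.9 CPM in VAS+H2O, 97.0, 115 and 113 CPM in IMQ+H2O, and 126, 89.0 and 158 CPM in IMQ+XYF. The means were ordered VAS+H2O, IMQ+H2O and IMQ+XYF, at 79.6 ± 18.0, 108 ± 9.97 and 124 ± 34.7 CPM (SD, n = 3 each), but neighbouring groups overlapped. The log2 fold change was 0.45 for IMQ+H2O against VAS+H2O (SE 0.22, 95% CI -0.06 to 0.96, edgeR adjusted p = 0.293). It was 0.64 for IMQ+XYF against VAS+H2O (SE 0.22, 95% CI 0.13 to 1.15, edgeR adjusted p = 0.172) and 0.20 for IMQ+XYF against IMQ+H2O (edgeR adjusted p = 0.746). The transcripts of 11 other genes match Odc1 at 95% identity or more over at least 300 bases. Of these, 9 were in the table, with summed counts of 11.6% to 25.7% of those of Odc1.

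Slc7a1 (ENSMUSG00000041313, chr5:148327410-148399904, minus strand) encodes CAT1, the widely expressed cationic amino acid transporter. It was measured at 37.0, 50.1 and 44.5 CPM in VAS+H2O, at 49.6, 51.5 and 52.5 CPM in IMQ+H2O, and at 83.2, 51.5 and 67.9 CPM in IMQ+XYF. The IMQ+XYF libraries lay above the 3 controls, and replicate 2 of them lay within the range of IMQ+H2O. The Slc7a1 log2 fold change of IMQ+XYF against VAS+H2O was 0.62 (SE 0.18, 95% CI 0.22 to 1.02, edgeR adjusted p = 0.107). Against IMQ+H2O, IMQ+XYF was at 0.40 (SE 0.18, 95% CI 0.00 to 0.80, edgeR adjusted p = 0.424). For IMQ+H2O against VAS+H2O it was 0.22 (edgeR adjusted p = 0.496). The order of the 3 IMQ+XYF libraries in Slc7a1 was the order of their summed keratinocyte markers, 18860, 5134 and 8622 CPM. The orders differed in VAS+H2O, where these markers summed to 5400, 8023 and 4633 CPM. They also differed in IMQ+H2O, at 3074, 4710 and 3596 CPM. The part of epidermal RNA in the Slc7a1 level was not tested.

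Slc7a2 (ENSMUSG00000031596, chr8:40862396-40922308, plus strand) encodes CAT2, the transporter that is known to be induced along with Nos2 and Arg1 in activated macrophages. It was measured at 23.6, 27.9 and 29.6 CPM in VAS+H2O, at 27.8, 25.7 and 26.2 CPM in IMQ+H2O, and at 19.4, 35.1 and 26.1 CPM in IMQ+XYF. The groups overlapped, and IMQ+XYF held both the lowest and the highest library. The log2 fold change was -0.02 for IMQ+H2O against VAS+H2O (SE 0.20, 95% CI -0.47 to 0.42, edgeR adjusted p = 0.957) and 0.02 for IMQ+XYF against IMQ+H2O (SE 0.20, 95% CI -0.43 to 0.46, edgeR adjusted p = 0.981). Its exons share 635 bases with Gm26584, on the other strand, which had 0 to 13 counts in a library.

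**Figure D2:**
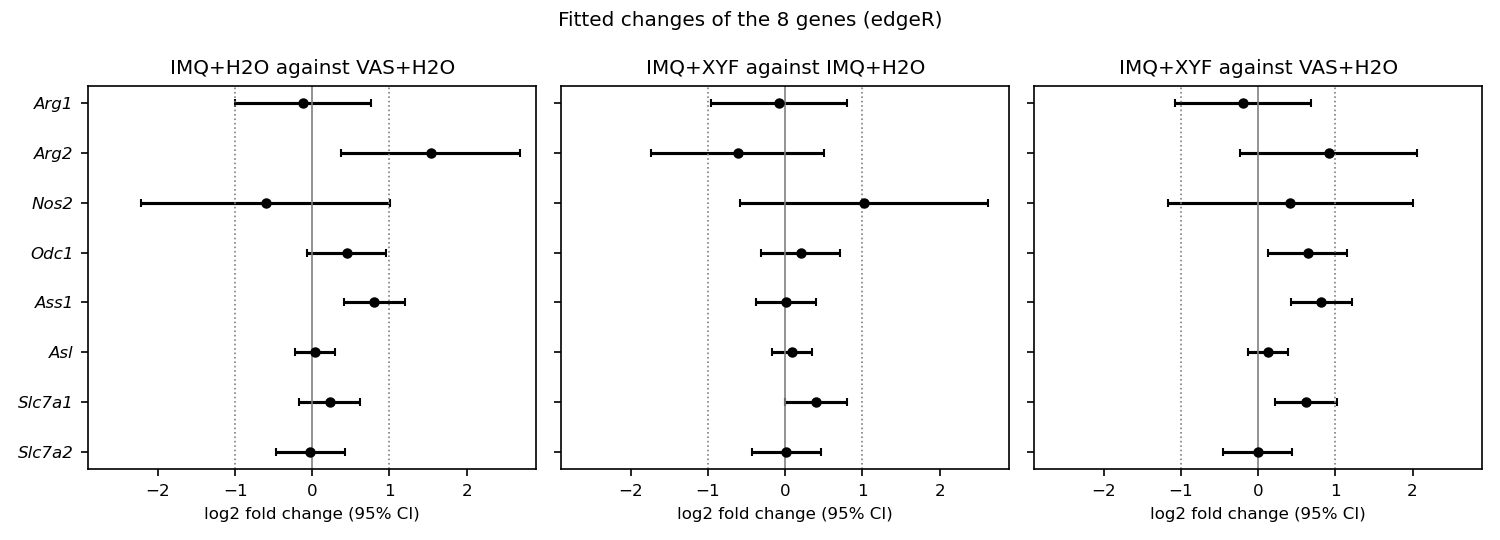
Log2 fold changes (x axes) of the 8 genes in the 3 comparisons, from the edgeR fit over 9 libraries. Points are fitted values, bars are 95% confidence intervals, and dotted lines mark the fold limit of 1. The intervals of Arg2 and Ass1 lie above 0 for IMQ+H2O against VAS+H2O, that of Slc7a1 just clears 0 for IMQ+XYF against IMQ+H2O, those of Ass1, Odc1 and Slc7a1 lie above 0 for IMQ+XYF against VAS+H2O, and none of the 8 genes was called.

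The set of RefSeq promoters (GRCm38.p6) at hand held 3 of the 8 members, Ass1, Odc1 and Slc7a1, so the sequences around their start sites are shown. That the set lacks the others says nothing of RefSeq itself. The same 3 genes had an unadjusted p under 0.05 by edgeR for IMQ+XYF against VAS+H2O, which was not used to choose them. Windows of 300 bases around the start sites were searched on both strands for the E-box, spelled CACGTG and bound by Myc with Max, which are known regulators of Odc1. The same search was made for the GC box, spelled GGGCGG, for the cAMP response element, spelled TGACGTCA, and for the TATA box, spelled TATAAA. No match of one motif overlapped another. Of 32544 distinct promoters, 7.17% held the E-box, 35.9% the GC box, 13.6% the TATA box and 1.80% the cAMP response element. The Ass1 stretch below is chr2:31470222-31470251 on the plus strand, within an annotated exon, the Odc1 stretch is chr12:17544623-17544793 on the plus strand, and the Slc7a1 stretch is chr5:148399905-148400154 on the minus strand. Capitals mark the E-box in Ass1 and the GC boxes, on either strand, in Odc1 and Slc7a1.
Ass1: cgcgcccgtcccCACGTGtcccaggttcct
Odc1: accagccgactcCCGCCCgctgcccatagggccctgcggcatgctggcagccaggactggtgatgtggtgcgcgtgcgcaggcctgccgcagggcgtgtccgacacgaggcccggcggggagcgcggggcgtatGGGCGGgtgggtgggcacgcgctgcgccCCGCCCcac
Slc7a1: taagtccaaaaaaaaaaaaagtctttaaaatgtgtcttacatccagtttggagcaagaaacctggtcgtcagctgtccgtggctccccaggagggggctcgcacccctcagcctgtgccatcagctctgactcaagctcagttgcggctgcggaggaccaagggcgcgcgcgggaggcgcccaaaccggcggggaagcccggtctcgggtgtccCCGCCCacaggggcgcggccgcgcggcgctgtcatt

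The E-box of Ass1 began 36 bases upstream of its RefSeq start site, with a GC box 63 bases upstream. The Odc1 window held 4 GC boxes, at 238, 116, 88 and 15 bases upstream, of which the first 3 are in the stretch shown. The letters of the E-box were in neither the Odc1 window nor the windows of Slc7a1. Slc7a1 had a GC box 36 bases upstream of its outer start site, and its inner start site (window chr5:148392766-148393065) had a TATA box 28 bases upstream. The GC box, present in all 3 genes, was common among all promoters. These matches describe letters only.

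Compared per kilobase of exon, the 8 genes spanned a wide range, and the order of their levels was similar in the 3 groups. In VAS+H2O, Odc1 led with 23.4 ± 5.30 CPM per kb, followed by Ass1 with 9.11 ± 0.346, Slc7a1 with 3.80 ± 0.572, Asl with 3.42 ± 0.120, Slc7a2 with 2.96 ± 0.343, Arg1 with 2.51 ± 1.16, Arg2 with 0.909 ± 0.362 and Nos2 with 0.680 ± 0.376 (SD, n = 3 each). Odc1 and Ass1 stood clear of their neighbours in every group. The libraries of Slc7a1 and Asl, of Slc7a2 and Arg1, and of Arg2 and Nos2 overlapped, so that their order within VAS+H2O was not resolved. Arg2 stood below Arg1 in VAS+H2O without overlap. In IMQ+H2O the Arg2 mean of 2.60 ± 1.28 CPM per kb was next to the Arg1 mean of 2.31 ± 0.552 CPM per kb, and their libraries overlapped.

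**Figure D3:**
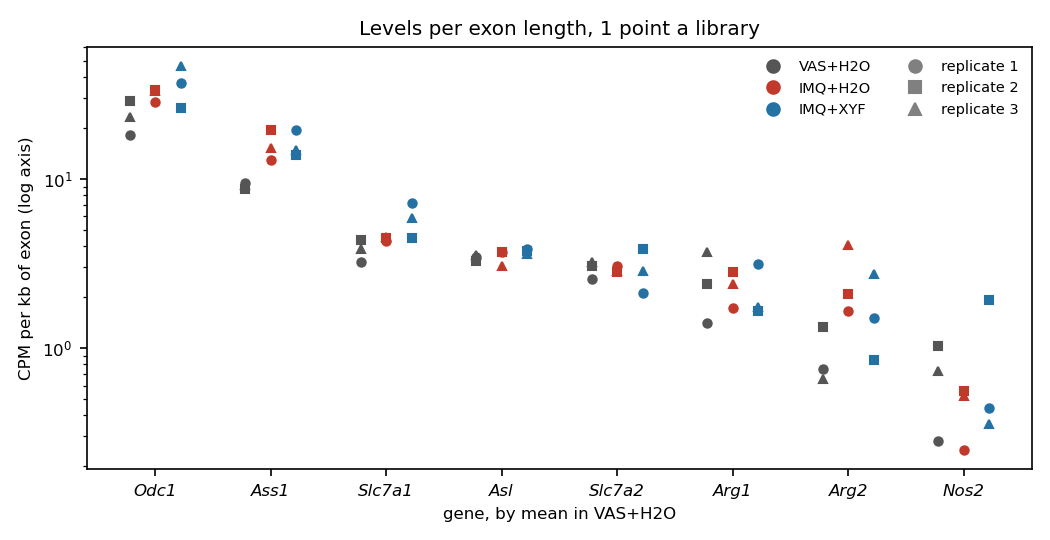
CPM per kilobase of exon (y axis, log scale) of the 8 genes, ordered by their mean in VAS+H2O. Each symbol is 1 library, coloured by group. Odc1 and Ass1 lie above the other 6 genes in every group, and Nos2 has the lowest mean in every group.

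Ratios of a pair of members within a library, chosen after their values were seen, put the balance of neighbouring steps on a scale that does not depend on library size. The Arg2 to Arg1 ratio, per length, was 0.177 to 0.550 in VAS+H2O, 0.744 to 1.69 in IMQ+H2O and 0.476 to 1.57 in IMQ+XYF. IMQ+H2O lay above VAS+H2O without overlap, by 1.52 on the log2 scale, and IMQ+XYF overlapped both. The Ass1 to Asl ratio was 2.60 to 2.73 in VAS+H2O, 3.50 to 5.24 in IMQ+H2O and 3.71 to 5.07 in IMQ+XYF. The control libraries lay below all 6 imiquimod libraries, by 0.76 and 0.68 on the log2 scale. For these 3 contrasts the exact two-sided permutation p was 0.1, the smallest that 3 against 3 libraries allow, and 0.4 after adjustment over 12 tests (4 ratios in 3 comparisons). The Slc7a1 to Slc7a2 ratio was 1.19 to 1.42, 1.41 to 1.59 and 1.16 to 3.39 in the same order of groups, and the Arg1 to Nos2 ratio was 2.35 to 5.08, 4.60 to 6.87 and 0.858 to 7.16. Both of the latter overlapped between groups in every comparison, with exact permutation p-values between 0.2 and 0.8.

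The other genes of the pathway were followed through a list of 65, of which 59 were tested. Slc7a9, Cps1, Otc, Nags, Agmat and Ifng did not pass the filter on low counts. The list held genes of arginine transport (10 tested), the urea cycle and ornithine use (6), nitric oxide enzymes with their cofactor and response (13), polyamine synthesis, control and breakdown (16), and known regulators of the 8 genes (14). For IMQ+H2O against VAS+H2O, 1 of 59 was called higher and 1 lower (background 0.994%), 17 had an unadjusted p under 0.05, which is 28.8% beside a background of 20.9%, and the median log2 fold change was -0.04, against -0.02 over all genes tested. For IMQ+XYF against VAS+H2O, 1 was called higher and 0 lower (background 1.20%), 22 had an unadjusted p under 0.05, which is 37.3% beside a background of 18.3%, and the median was 0.05, against -0.02 over all genes.

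**Figure D4:**
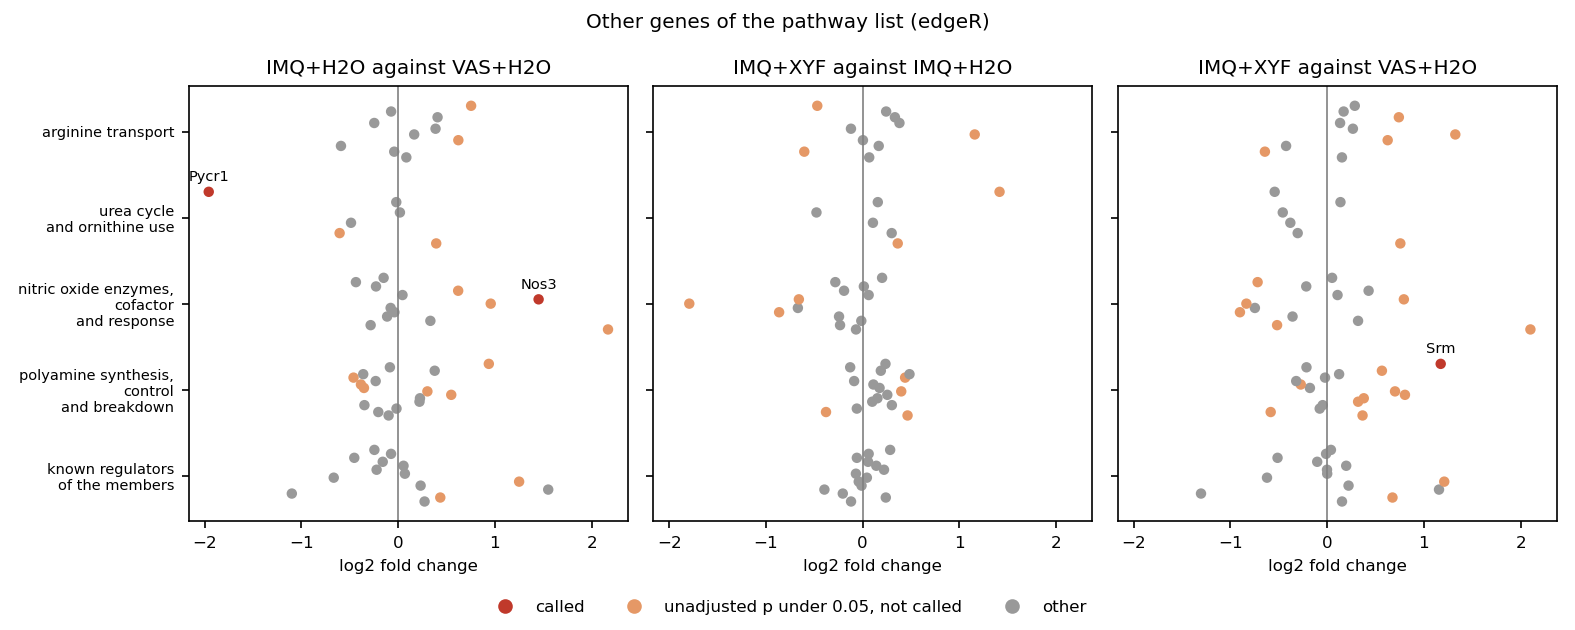
Log2 fold changes (x axes) of the 59 tested pathway genes by group of the list, for the 3 comparisons of the edgeR fit. Each point is 1 gene, and colour marks called genes and those with an unadjusted p under 0.05. The called genes are Pycr1 at -1.96 and Nos3 at 1.45 for IMQ+H2O against VAS+H2O, and Srm at 1.17 for IMQ+XYF against VAS+H2O.

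Among the nitric oxide genes, imiquimod moved the endothelial synthase rather than the inducible one past the limits, although the difference between these genes was not tested. Nos3, the nitric oxide synthase of vessel walls, was at 26.7, 33.1 and 44.5 CPM in VAS+H2O, at 91.1, 94.7 and 99.8 CPM in IMQ+H2O, and at 57.9, 38.3 and 84.7 CPM in IMQ+XYF. The IMQ+H2O libraries lay close together above the other 6. Nos3 rose by 1.45 on the log2 scale in IMQ+H2O (SE 0.28, edgeR adjusted p = 0.0478), and this call was lost when any 1 of the VAS+H2O or IMQ+H2O libraries was left out, or without IMQ+XYF replicate 1. Over the alternatives its adjusted p ran from 7.33e-05 to 0.159 and its log2 fold change from 1.29 to 1.67. The summed level of the 8 endothelial markers moved with it, at 626 to 1007 CPM in VAS+H2O, 1354 to 1446 CPM in IMQ+H2O and 529 to 1268 CPM in IMQ+XYF with every marker detected in every library, and their part in the Nos3 level was not tested. Nos3 exons share 1040 bases with Gm15587 and 294 bases with Atg9b on the other strand. Gm15587 was at 1.53 to 2.37 CPM in VAS+H2O and 3.38 to 3.78 CPM in IMQ+H2O, and Atg9b at 8.23 to 12.9 CPM and 5.34 to 7.34 CPM. How many Nos3 reads came from the shared bases was not tested.

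Ddah1 breaks down asymmetric dimethylarginine, a natural inhibitor of nitric oxide synthases. It was at 5.51, 6.50 and 9.28 CPM in VAS+H2O, at 26.8, 25.9 and 43.3 CPM in IMQ+H2O, and at 30.4, 13.1 and 48.1 CPM in IMQ+XYF. All 6 imiquimod libraries lay above the 3 controls. Its log2 fold changes of 2.17 for IMQ+H2O against VAS+H2O (SE 0.45, edgeR adjusted p = 0.0567) and 2.10 for IMQ+XYF against VAS+H2O (SE 0.45, edgeR adjusted p = 0.0534) narrowly missed the limit, and DESeq2 called both (adjusted p = 4.36e-05 and 6.48e-05).

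Nos1, the neuronal synthase, which skeletal muscle also makes, had the smallest p of the list for IMQ+XYF against IMQ+H2O. It was at 3.52, 4.53 and 3.71 CPM in VAS+H2O, at 11.3, 4.15 and 7.41 CPM in IMQ+H2O, and at 1.82, 2.70 and 2.08 CPM in IMQ+XYF. The IMQ+XYF libraries were the lowest, below those of both other groups without overlap. The log2 fold change of -1.79 (SE 0.35) had an edgeR adjusted p of 0.355 and a DESeq2 adjusted p of 0.000589. Skeletal muscle markers, given above, were lower in IMQ+XYF than in IMQ+H2O without overlap, and their part in the Nos1 level was not tested. Gucy1a1 (Gucy1a3 in the table), a subunit of the soluble guanylate cyclase that senses nitric oxide, was at 28.7, 33.3 and 29.0 CPM in IMQ+H2O and at 16.6, 13.0 and 20.4 CPM in IMQ+XYF (log2 fold change -0.86, SE 0.22, edgeR adjusted p = 0.363).

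The polyamine genes downstream of Odc1 held the call in IMQ+XYF against VAS+H2O. Srm, the spermidine synthase, was at 30.8, 25.8 and 29.9 CPM in VAS+H2O, at 50.4, 50.5 and 64.8 CPM in IMQ+H2O, and at 80.5, 41.4 and 73.1 CPM in IMQ+XYF. All 6 imiquimod libraries lay above the controls. Srm rose by 1.17 on the log2 scale in IMQ+XYF against VAS+H2O (SE 0.23, edgeR adjusted p = 0.0456). It was at 0.94 for IMQ+H2O against VAS+H2O (SE 0.23, edgeR adjusted p = 0.0817). For IMQ+XYF against IMQ+H2O it was at 0.24 (SE 0.23, edgeR adjusted p = 0.698). With 1 library left out, the Srm call held only without IMQ+XYF replicate 2, and over all alternatives the adjusted p ran from 0.000255 to 0.152.

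Other polyamine genes in IMQ+XYF against VAS+H2O passed the adjusted p limit but not the fold limit. Mtap, which salvages the methylthioadenosine left over from spermidine synthesis, was at 24.4, 20.9 and 23.0 CPM in VAS+H2O, at 27.2, 24.8 and 32.2 CPM in IMQ+H2O and at 37.7, 36.7 and 36.6 CPM in IMQ+XYF. The 3 groups did not overlap, and the log2 fold change of IMQ+XYF against VAS+H2O was 0.70 (SE 0.12, edgeR adjusted p = 0.0326). For IMQ+XYF against IMQ+H2O it was 0.40 (SE 0.12, edgeR adjusted p = 0.364). Eif5a is the translation factor that carries a modified residue made from spermidine. It was at 292 ± 36.8 CPM in VAS+H2O, 427 ± 44.8 CPM in IMQ+H2O and 509 ± 75.1 CPM in IMQ+XYF (SD, n = 3 each). The Eif5a log2 fold change was 0.80 for IMQ+XYF against VAS+H2O (SE 0.15, edgeR adjusted p = 0.0409). It was 0.55 for IMQ+H2O against VAS+H2O (SE 0.15, edgeR adjusted p = 0.097). For IMQ+XYF against IMQ+H2O it was 0.26 (SE 0.15, edgeR adjusted p = 0.510). Of the 16 polyamine genes tested in IMQ+XYF against VAS+H2O, 7 had an unadjusted p under 0.05 by edgeR with a higher level and 2 with a lower one. Together these were 56.3% of the 16, beside a background of 18.3%, and the median log2 fold change over all 16 was 0.05. This was the highest share of any group of the list. The nitric oxide genes had 46.2% in that comparison. The polyamine genes had 37.5% for IMQ+H2O against VAS+H2O (background 20.9%) and 25% for IMQ+XYF against IMQ+H2O (background 11.7%). The keratinocyte markers had a median log2 fold change of 0.82 in IMQ+XYF against VAS+H2O, with 1 of 14 called higher. For IMQ+H2O against VAS+H2O their median was -0.52, with 0 of 14 called. Srm, Eif5a and Mtap were at 0.94, 0.55 and 0.30 there, and 6 of the 16 polyamine genes had a value above 0. The part of epidermal RNA in these levels was not tested.

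For IMQ+XYF against IMQ+H2O, 0 of the 59 list genes were called by edgeR (background 0.00892%), 12 had an unadjusted p under 0.05, which is 20.3% beside a background of 11.7%, and DESeq2 called 3, namely Pycr1, Nos1 and Slc6a14. Over all genes, too, DESeq2 called far more than edgeR in this comparison, with the totals in the closing section. Amd1, the decarboxylase that supplies the aminopropyl group for spermidine, was at 54.2, 56.2 and 53.0 CPM in IMQ+H2O and at 89.2, 68.6 and 67.6 CPM in IMQ+XYF. These groups did not overlap, and the log2 fold change was 0.46 (SE 0.12, edgeR adjusted p = 0.364). Reads of Amd1 could be split with Amd2, whose transcript matches it over 3202 bases at 99.6% identity.

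Ornithine can also be exchanged with proline, the main amino acid of collagen beside glycine. Pycr1, the mitochondrial enzyme that makes proline, was at 4.54, 4.11 and 7.09 CPM in VAS+H2O, at 1.58, 1.02 and 1.46 CPM in IMQ+H2O, and at 2.41, 4.05 and 4.38 CPM in IMQ+XYF. The IMQ+H2O libraries were the 3 lowest. Pycr1 fell by 1.96 on the log2 scale in IMQ+H2O against VAS+H2O (SE 0.33, edgeR adjusted p = 0.0324), a call that was lost when any 1 library of these groups was left out. Over the alternatives its adjusted p ran from 2.73e-06 to 0.127. The Pycr1 log2 fold change of IMQ+XYF against IMQ+H2O was 1.42 (SE 0.32, edgeR adjusted p = 0.360, DESeq2 adjusted p = 0.00718). Aldh18a1, which feeds the same route from glutamate, was at 23.7, 23.9 and 25.7 CPM in VAS+H2O, at 27.2, 29.3 and 39.7 CPM in IMQ+H2O and at 44.1, 37.9 and 41.7 CPM in IMQ+XYF. Its log2 fold change in IMQ+XYF against VAS+H2O was 0.76 (SE 0.15, edgeR adjusted p = 0.0441), under the fold limit. For IMQ+XYF against IMQ+H2O it was 0.36 (SE 0.15, edgeR adjusted p = 0.400). Cartilage markers were lower in IMQ+H2O than in VAS+H2O, with 2 of 7 called lower, and their part in the Pycr1 level was not tested.

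Of the arginine transport genes, Slc3a2 had the smallest p with imiquimod. It encodes the heavy chain that pairs with light chains such as Slc7a5, Slc7a6 and Slc7a7. Its levels were 116, 149 and 151 CPM in VAS+H2O, 199, 225 and 215 CPM in IMQ+H2O, and 237, 183 and 221 CPM in IMQ+XYF. The controls lay below all 6 imiquimod libraries, and the log2 fold change was 0.62 with imiquimod (SE 0.14, edgeR adjusted p = 0.0670). Slc6a14, a broad transporter of neutral and cationic amino acids of epithelia, named here for its calls by DESeq2 after its values were seen, had a log2 fold change of 1.16 for IMQ+XYF against IMQ+H2O (SE 0.33, edgeR adjusted p = 0.364, DESeq2 adjusted p = 0.0459). The keratinocyte markers had a median log2 fold change of 1.43 in the same comparison, and their part in the Slc6a14 level was not tested. Of the 14 regulators tested, 2, 0 and 2 had an unadjusted p under 0.05 by edgeR in the 3 comparisons, in the order used above. These shares, 14.3%, 0% and 14.3%, were below the background of 20.9%, 11.7% and 18.3%. Of the same 14, edgeR called 0 in each comparison and DESeq2 called 1, 0 and 1, with the totals over all genes in the closing section. The pair with low p-values was Il4ra and Hif1a in both cases. Il4ra, the receptor chain through which IL-4 and IL-13 are known to induce Arg1, was the 1 that DESeq2 called, with a log2 fold change of 1.25 for IMQ+H2O against VAS+H2O (SE 0.38, edgeR adjusted p = 0.124, DESeq2 adjusted p = 0.0193). The ligands Il4 and Il13 had log2 fold changes of 0.23 (SE 0.45, edgeR adjusted p = 0.801) and -1.10 (SE 0.65, edgeR adjusted p = 0.362) in that comparison. The known inducers of Nos2 on the list, Tnf and Il1b, had log2 fold changes of -0.25 (SE 0.62, edgeR adjusted p = 0.848) and 1.55 (SE 0.69, edgeR adjusted p = 0.240) in the same comparison. Il4ra, Hif1a, Il4, Il13, Tnf and Il1b were likewise named after their values were seen.

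**Figure D5:**
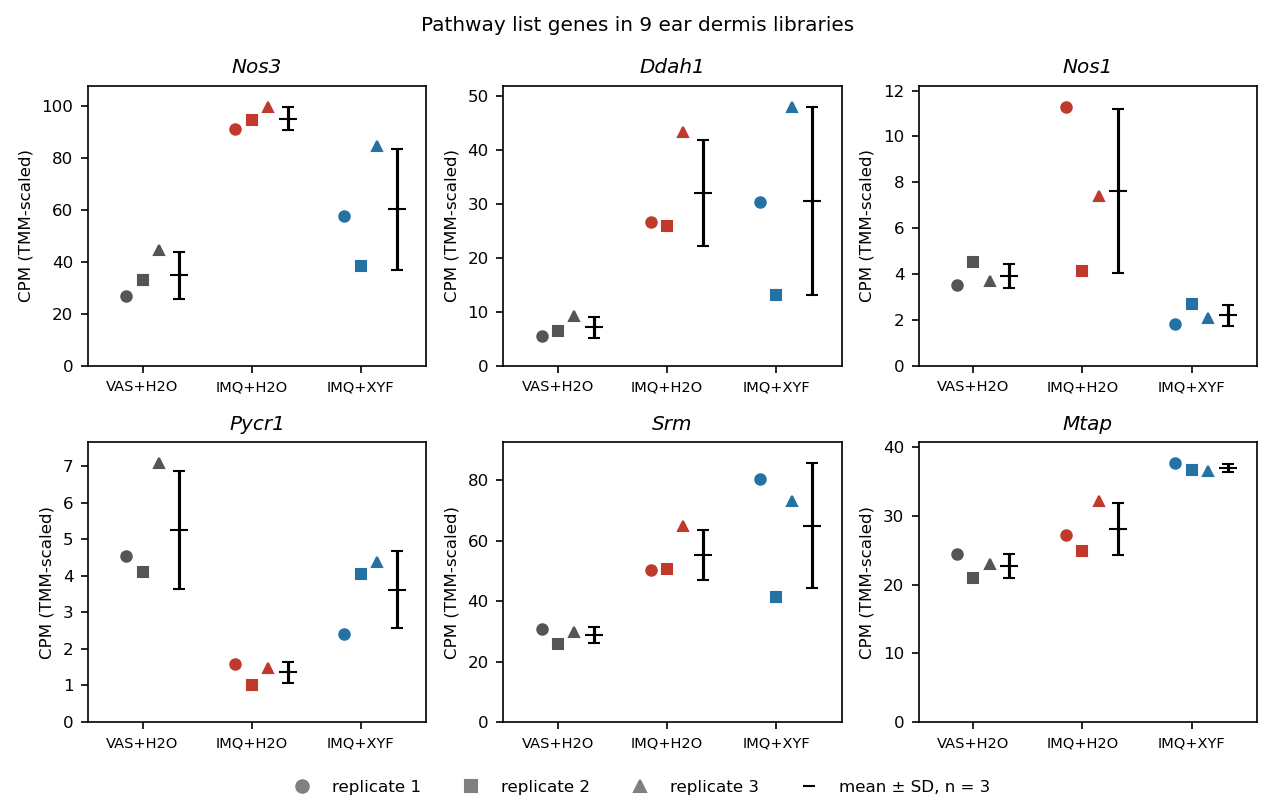
CPM scaled by TMM factors (y axes from 0, a scale of its own for each gene) of 6 pathway genes in the 9 libraries. Each symbol is 1 library, and bars give the mean ± SD of 3 libraries. Nos3 reaches 91.1 to 99.8 CPM in IMQ+H2O, above every other library, Pycr1 is lowest there, Nos1 is lowest in IMQ+XYF, and the 3 controls are below the other 6 libraries in Ddah1, Srm and Mtap.

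Genes whose pattern was closest to Arg1 and Nos2 were sought among 12096 and 12097 genes, by the root mean square difference of centred log2 CPM over the 9 libraries. Dusp6 at 0.185, Sik1 at 0.204 and Tenm4 at 0.209 were closest to Arg1, whose own root mean square deviation was 0.445. Kpna1 at 0.541, Gpc6 at 0.542 and Nr4a2 at 0.549 were closest to Nos2, whose own was 0.870.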

How the data were processed

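The authors deposited whole-number read counts per Ensembl gene for 9 libraries, without normalization. Per the study's methods and the submitters' processing notes, reads were aligned with STAR (2.5 in the notes) to GRCm38 and tested with DESeq2. The counting tool, its use of strand, its treatment of reads with several alignments and any filter are not given in the sources used here. The labels call the libraries strand-specific, whereas the methods name a TruSeq kit version. Counts were tested with edgeR 4.0.16 in R 4.3.3 by its quasi-likelihood test, with TMM factors, filterByExpr (22430 of 52550 genes kept) and 1 coefficient per group over all 9 libraries. The common biological coefficient of variation of edgeR came to 0.296. Calls needed a Benjamini-Hochberg adjusted p of 0.05 or lower and an absolute log2 fold change of 1 or higher, the limits of the study. SE is the absolute log2 fold change over the square root of F. Exon lengths and positions are from GENCODE vM21 (GRCm38). Total counts ran from 28756305 to 79836881, so that a floor of 3 counts was 0.0373 to 0.103 CPM, which covers counting error only. Alternatives were DESeq2 1.42.0, DESeq2 size factors, no filter, only the groups compared, no fold limit, a replicate block and leaving out each library. The edgeR script was tested on simulated data. The 8 genes and the lists were chosen with earlier results of these data known. Besides the 8 genes, the text names list genes that were called or had 1 of the 4 smallest p-values in a comparison, and the 3 genes closest in pattern to Arg1 and Nos2. Slc6a14, Il4ra, Hif1a, Il4, Il13, Tnf and Il1b fall outside this rule. Of the list, 2 genes were matched by another symbol.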

Additional observations from a re-analysis of the deposited data

How the results depend on the processing

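DESeq2 called 1 of the 8 genes (Arg2) for IMQ+H2O against VAS+H2O, and every other alternative called 0 of 8 in each comparison. Without IMQ+XYF replicate 2, the edgeR adjusted p for IMQ+XYF against VAS+H2O was 0.0259 for Ass1, 0.0364 for Odc1 and 0.0168 for Slc7a1. DESeq2 on all 9 libraries gave adjusted p-values of 0.00157, 0.0755 and 0.0292 in the same order. The log2 fold changes of these fits were under the limit of 1. For IMQ+H2O against VAS+H2O, the pathway list had 4 calls with DESeq2 (Pycr1, Nos3, Ddah1 and Il4ra) and with only the 2 groups fitted, 1 without the low-count filter, and 0 to 4 with a library left out. For IMQ+XYF against IMQ+H2O it had 3 with DESeq2. For IMQ+XYF against VAS+H2O it had 2 with DESeq2 size factors, 4 with DESeq2 (Srm, Ddah1, Slc6a14 and Il4ra), 4 with no fold limit, 0 without the filter and with only the 2 groups, and 0 to 5 with a library left out. The upper values, 4 and 5, came without IMQ+XYF replicate 2. Over all genes, with 223, 2 and 270 calls in the 3 comparisons, DESeq2 gave 952, 222 and 722, only the 2 groups gave 496, 1 and 33, no fold limit gave 453 in IMQ+XYF against VAS+H2O, and leaving out a library gave 25 to 455, 0 to 4 and 12 to 592. The cause of these differences was not tested.

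Deviations of same-numbered libraries from their group means correlated at -0.183 to 0.125, with 1 of 9 pairs over 0.1. Differently numbered libraries correlated at -0.161 to 0.277. With 3 libraries a group, these values cannot show whether the replicate numbers pair the libraries. With the replicate block, 1 pathway gene (Ddah1) was called for IMQ+H2O against VAS+H2O and 0 for IMQ+XYF against VAS+H2O, and over all genes 86, 0 and 54.

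Signs turned only for values near 0 or resting on 1 library. For Slc7a2 in IMQ+H2O against VAS+H2O, the log2 fold change was 0.0033 with DESeq2 size factors, 0.0045 with 2 groups, and -0.12 to 0.046 with a library left out. In IMQ+XYF against VAS+H2O it was 0.014 with DESeq2 size factors, 0.018 with DESeq2, 0.0037 without the filter, 0.0068 with 2 groups, and -0.20 to 0.18 with a library left out. In IMQ+XYF against IMQ+H2O it was -0.019 with the replicate block and -0.19 to 0.21 with a library left out. With a library left out, Arg1 ran from -0.41 to 0.28, -0.43 to 0.11 and -0.56 to 0.20 in the 3 comparisons, in the order given above. In IMQ+XYF against IMQ+H2O, Ass1 ran from -0.15 to 0.19, Nos2 from -0.14 to 1.40 and Odc1 from -0.0100 to 0.42, and in IMQ+XYF against VAS+H2O Nos2 ran from -0.71 to 0.83. Asl ran from -0.020 to 0.14 in IMQ+H2O against VAS+H2O. The negative Nos2 values came without IMQ+XYF replicate 2. The log2 Arg1 to Nos2 ratio, left out in the same way after the data were seen, ran from -1.40 to 0.13 in IMQ+XYF against IMQ+H2O and from -0.93 to 0.60 in IMQ+XYF against VAS+H2O, and the Ass1 to Asl ratio from -0.26 to 0.027 in IMQ+XYF against IMQ+H2O. At 3 libraries a group, the 95% intervals of Nos2 covered 0 in every comparison, and a change of the fitted size could not be told from the spread between libraries.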
